A study of Mus musculus with 15 samples.

Results

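The 12 dendritic cell (DC) libraries of a series of 15 murine RNA-seq libraries were used to ask which genes separate the DC1 and DC2 lineages differently in the spleen and in the lymph node (LN). The libraries formed 4 groups of 3 replicates, namely splenic CD8+ DCs and LN CD103+ DCs, which represent DC1, and splenic CD4+ DCs and LN CD11b+ DCs, which represent DC2. For each gene the log2 difference of DC1 over DC2 was taken in each organ, and the LN difference was subtracted from the splenic one. This value, the interaction of lineage and organ, is above 0 where a gene leaned more toward DC1 in the spleen than in the LN and below 0 where it leaned more toward DC2 in the spleen. Of 38924 genes counted, the 14121 with more than 1 CPM (counts scaled to the library total) in at least 3 of the 12 libraries were tested. The remaining 3 libraries, splenic Ly6C+ monocytes, entered only 1 alternative fit.

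All cells came from naïve C57BL/6 mice, female by the methods and between 6 and 8 weeks old by the labels. Each library was a sort of CD11c+ MHCII+ cells from pooled mice after collagenase D digestion and magnetic enrichment, with CD8, CD4 (together with CD11b), CD103 or CD11b as the marker of the group. The LN were those that drain the lung, and the gate took the cells of high MHC class II, the migratory ones, whereas splenic DCs were sorted from other cohorts of mice. Organ, cohort and gate therefore cannot be told apart in any value given here. A bulk library also cannot separate fewer cells that carry a transcript from less of it per cell, and the p-values measure the spread between these pools of cells.

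DC1 depend on IRF8 and BATF3, take up dying cells and present their antigens to CD8+ T cells. DC2 depend on IRF4 and, in the spleen, on Notch2 signaling, and they mainly prime CD4+ T cells. Splenic DCs are residents of a blood-filtering organ, while the DCs sorted from the LN had left the lung, a journey during which DCs turn on CCR7, costimulatory molecules and the NF-kB program known as maturation.

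The counts on genes ran from 4531243 to 9683795 per library, with 15292 to 17693 genes detected. Replicates of a group differed by 12.88 to 50.67 times the variance that counting alone gives, and no pair agreed within counting noise. Of 13 sort marker genes 7 were called for the interaction, against 8.89% of all genes, among them Cd8a, Itgae and H2-Ab1, which are described below. The marker CD11b followed the labels in both organs. Itgam, which encodes CD11b, was lower in DC1 than in DC2 in both organs (-5.4 ± 0.38 in spleen and -5.41 ± 0.44 in LN on the log2 scale, fitted differences are given with the SE throughout), and its interaction was 0.01 ± 0.58 (adjusted p = 1). Sirpa, another DC2 marker, differed by -4.33 ± 0.30 in spleen and -5.64 ± 0.31 in LN without passing the interaction test (adjusted p = 0.0726). Itgam and Sirpa thus separated the sorted lineages in both organs, although CD11b was itself a marker of both DC2 gates. All 30 genes of the DC1 signature and all 30 of the DC2 signature passed the filter on low counts. The summed T cell markers counted 5.94 to 27.7 CPM in splenic DCs and 136 to 248 CPM in LN DCs, and 1 LN CD103+ library, replicate 1, carried B cell transcripts (Cd79b, a chain of the B cell receptor, at 66.5 CPM against 2.75 and 3.59 CPM in the other two).

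The interaction passed the test for 1256 of the 14121 genes (8.89%), 663 above 0 (4.7%) and 593 below 0 (4.2%). Most of these genes separated the lineages in the spleen only. The lineage difference was lost in the LN for 802 genes (63.9% of those called), which passed the test between splenic CD8+ and CD4+ DCs but not between LN CD103+ and CD11b+ DCs. It was gained in the LN for 195 genes, turned to the other lineage for 70, narrowed for 89 and widened for 46, while 54 genes passed in neither organ. The median size of the interaction was 1.97 among the called genes and 609 of them had a size of 2 or more. In all, 24.5% of genes passed the lineage test in the spleen and 10.9% in the LN, so a gene that passed in the spleen alone was common to begin with. These counts, 3460 and 1539 genes, were 2229 without splenic CD8+ replicate 3 and 913 without LN CD103+ replicate 2. Fitting the replicate number as a block within each organ, where libraries with one number deviated together, raised the interaction calls to 2600, 18.4% of all genes. These held 1255 of the 1256, and counts of list members called with the block are to be read beside that share. In that fit 117 of the 802 lost genes passed the LN test, among them Ccr7, Ifit3, Map3k14 and Jag2, so lost refers to the test without the block, and groups are said to overlap by their libraries without regard to the replicate number. Leaving out LN CD103+ replicate 2 lowered the interaction calls to 830, and 704 genes were called in every one of the 12 fits that each left out 1 library.

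**Figure D1:**
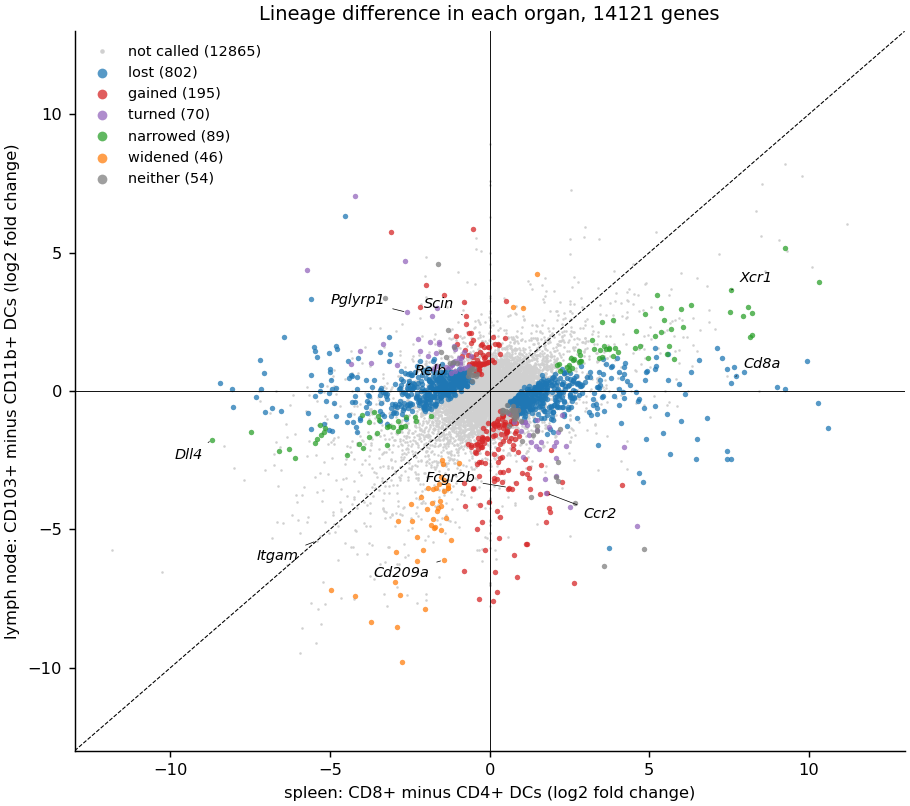
Each of the 14121 genes is placed by its log2 fold change of CD8+ over CD4+ DCs in the spleen (x axis) and of CD103+ over CD11b+ DCs in the LN (y axis), and genes called for the interaction are colored by class. Genes on the dashed diagonal had equal differences in both organs, as Itgam does, the 802 lost genes spread along the horizontal axis, and the 195 gained genes along the vertical axis.

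DC1 rather than DC2 differed most between the organs at these genes. The difference between LN and spleen was larger in DC1 than in DC2 for 945 of the 1256 called genes (75.2%), against 8732 of all 14121 tested (61.8%), and its median size was 2.12 in DC1 and 0.98 in DC2 among called genes. The 429 genes that lost a DC2 bias were a median of 2.25 higher on the log2 scale in LN CD103+ than in splenic CD8+ DCs, with a median of 0.15 between the DC2 groups. The 373 genes that lost a DC1 bias were a median of 1.62 lower in LN CD103+ than in splenic CD8+ DCs (-1.62) and slightly higher in LN CD11b+ than in splenic CD4+ DCs (0.42). Among genes that gained a DC2 bias the median was -2.70 in DC1 and -0.41 in DC2. Splenic CD8+ DCs were the group farthest from the others for 596 of the 802 lost genes, and splenic CD4+ DCs for 203. LN CD103+ DCs were farthest for 158 of the 195 gained genes, and LN CD11b+ DCs for 37. Over all 14121 genes tested these groups were farthest for 4624, 3866, 4024 and 1607, in the same order. Lost genes differ in the spleen by definition and gained genes in the LN, so each class favors the groups of that organ. These medians and counts come from the same libraries that chose the genes and are given as a description.

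**Figure D2:**
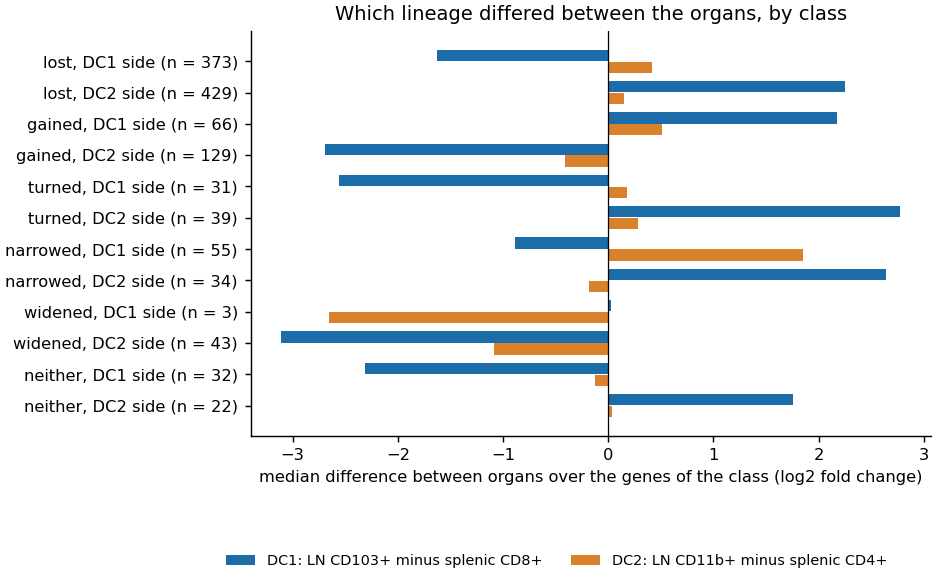
Bars give, for each class and side of the lineage difference, the median over its genes of the log2 fold change of LN over spleen in DC1 (blue) and in DC2 (orange), with the number of genes beside each class. The DC1 bar is the longer in every class but narrowed on the DC1 side and widened on the DC1 side, the latter with 3 genes.

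Among the function lists, the DC1 signature had the largest share of called genes. Of its 30 genes 23 were called, against 8.89% of all genes, all above 0, with a median interaction of 3.27 beside 0.06 over all genes tested. In the spleen 28 of the 30 passed in favor of DC1, and in the LN 13 did. A DC1 bias that is lost or narrowed can only give a value above 0, so this list largely set the side of its calls. It was also chosen with earlier results of these data known. The bias was lost for 12 genes and narrowed for 10, and Slamf8 gained a DC2 bias in the LN.

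Splenic DC1 were sorted on CD8 and LN DC1 on CD103, so the splenic difference of Cd8a cannot be told apart from the gate. Cd8a, the gene of the splenic sort marker, lost its DC1 bias in the LN. It counted 347, 344 and 626 CPM in CD8+ DCs and 2.72, 2.61 and 0.833 CPM in CD4+ DCs of the spleen, but 19.9, 15.4 and 19.2 CPM in LN CD103+ and 11.2, 13.5 and 13.1 CPM in LN CD11b+ DCs, an interaction of 7.18 ± 0.47 (adjusted p = 5.92e-07). The T cell marker sum given above is also higher in the LN, and its part in the LN values of Cd8a was not tested. Rab7b, a small GTPase of late endosomes, counted 863, 1170.1 and 1038 CPM in splenic CD8+ DCs and 98.2, 31.5 and 26.3 CPM in LN CD103+ DCs, and the LN CD11b+ libraries, at 28.2, 30.8 and 38.2 CPM, lay within the range of the LN CD103+ libraries. Its splenic CD4+ libraries counted 3.88, 5.91 and 2.33 CPM, below every other library, and its interaction was 7.3 ± 0.59 (adjusted p = 3.36e-06).

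Endosomal receptors for microbial RNA and profilin lost their DC1 bias. Tlr3, the sensor of double-stranded RNA, counted 206, 272 and 364 CPM in CD8+ DCs and 11, 7.12 and 9.5 CPM in CD4+ DCs of the spleen. In the LN it counted 14.5, 3.78 and 4.73 CPM in CD103+ and 6.61, 1.91 and 5.11 CPM in CD11b+ DCs, so the LN groups overlapped and the interaction was 4.18 ± 0.64 (adjusted p = 0.000613). Tlr12, which with Tlr11 recognizes profilin of protozoan parasites, was at 103 ± 28.5 CPM (mean ± SD of n = 3 libraries, as for all means given here) in splenic CD8+ DCs and 16.5 ± 4.19 CPM in LN CD103+ DCs, and at 4.29 ± 2.64 CPM in splenic CD4+ and 17.3 ± 3.71 CPM in LN CD11b+ DCs (interaction 4.65 ± 0.49, adjusted p = 2.51e-05). Tlr11 lost its bias with an interaction of 3.24 ± 0.44 (adjusted p = 0.00026). Within the list of 35 pattern recognition genes 10 were called, 4 above and 6 below 0, against 8.89% of all genes. The block within organ gave 16, against 18.4% of all genes.

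Other DC1 genes kept a smaller bias in the LN. Irf8, the transcription factor that specifies DC1, counted 1938, 2387 and 3109 CPM in splenic CD8+ DCs against 68.7, 46.6 and 41.5 CPM in splenic CD4+ DCs, and 744, 524 and 531 CPM in LN CD103+ against 323, 198 and 188 CPM in LN CD11b+ DCs. Its lineage difference narrowed from 5.56 ± 0.28 to 1.34 ± 0.27 (interaction 4.22 ± 0.39, adjusted p = 8.35e-06), with no overlap in either organ. Xcr1, the receptor for the chemokine XCL1, narrowed from 7.58 ± 0.51 to 3.65 ± 0.50, and Clec9a, a receptor for actin of dying cells, from 5.24 ± 0.25 to 3.48 ± 0.28. For Clec9a both lineages were lower in the LN, at 33.8 ± 4.45 CPM in CD103+ and 3.06 ± 1.33 CPM in CD11b+ DCs, compared with 286 ± 17.6 CPM in splenic CD8+ and 7.52 ± 1.38 CPM in splenic CD4+ DCs. Itgae, which encodes the sort marker CD103, narrowed from 7.93 ± 0.93 to 2.7 ± 0.53. It was higher in splenic CD8+ DCs (70.9, 113 and 135 CPM) than in the LN DCs sorted on the protein (38.5, 20.4 and 20.7 CPM). Between the DC2 groups it was lower in splenic CD4+ DCs (0.463 ± 0.803 CPM) than in LN CD11b+ DCs (4.25 ± 2.41 CPM).

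Batf3, the partner of IRF8, was called with a small interaction of 0.94 ± 0.28 (adjusted p = 0.044), but in only 2 of the 12 fits that left out 1 library, where the adjusted p reached 0.117. Cadm1, an adhesion molecule of DC1, likewise passed in 2 of the 12 fits (1.31 ± 0.37, adjusted p = 0.0344 with all libraries and up to 0.0859 without one). Clnk, an adaptor of immunoreceptor signaling, had no count in splenic CD4+ DCs and 16.5, 21.3 and 26.1 CPM in splenic CD8+ DCs, at least 138-fold higher when 3 counts over the CD4+ group are taken as the floor. In the LN it counted 2.03, 1.61 and 1.3 CPM in CD103+ and 0.734, 1.03 and 5.55 CPM in CD11b+ DCs, which overlapped. Synpo, a gene of actin-associated synaptopodin, and Jag2, a Notch ligand, followed the same course, at least 68-fold (Synpo) and 109-fold (Jag2) above the CD4+ floor, with adjusted p values for the interaction of 0.000653 and 0.000849.

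**Figure D3:**
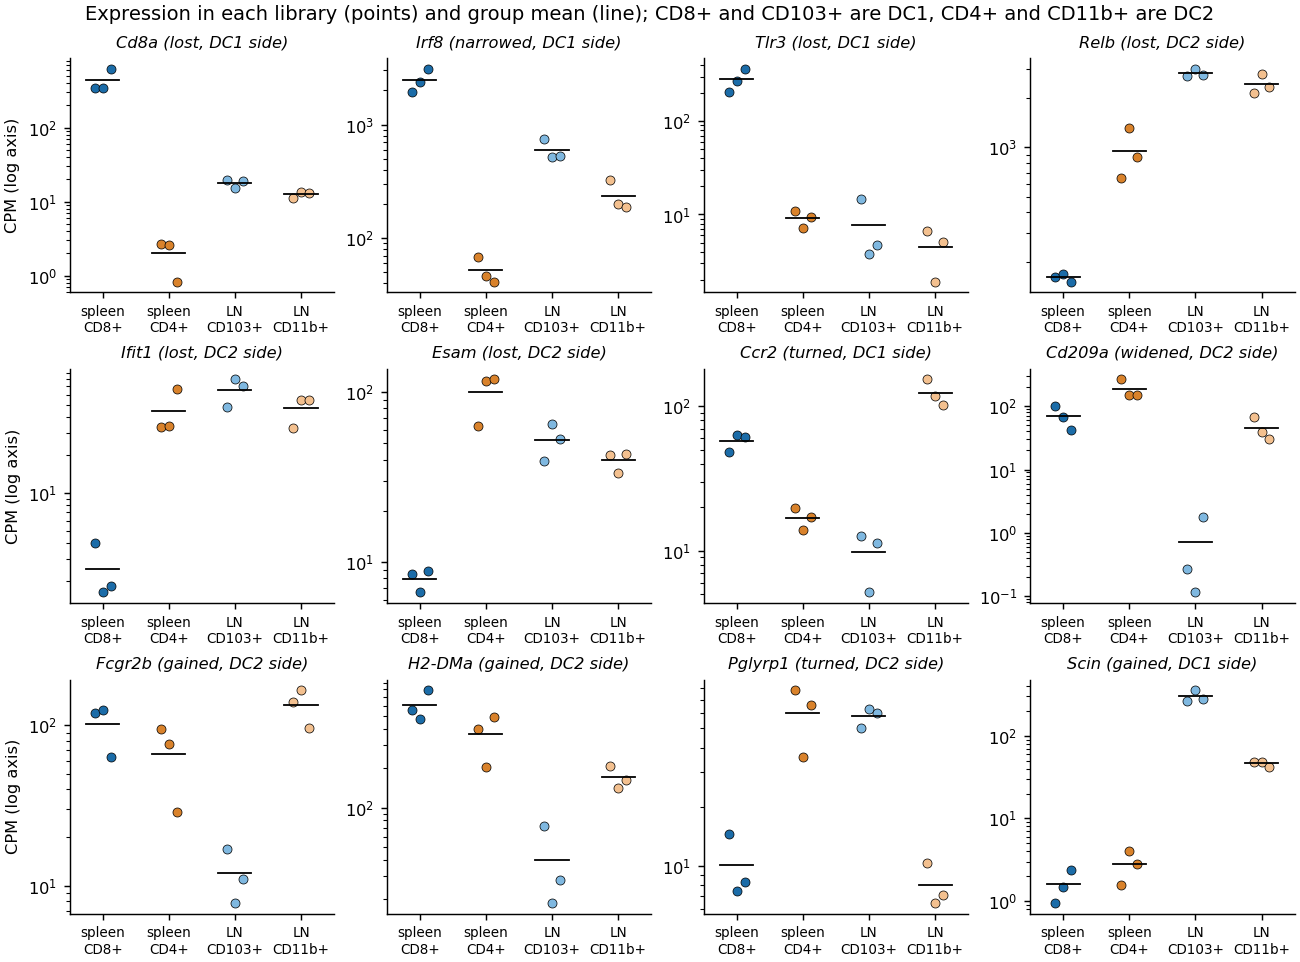
Each panel shows 1 gene, with a point for each of the 3 libraries of a group and a line at the group mean, in CPM on a log axis that differs between panels. Cd8a and Tlr3 stand high in splenic CD8+ DCs alone, Relb, Ifit1 and Esam are lowest in splenic CD8+ DCs, Ccr2 and Pglyrp1 change sides between the organs, and Cd209a, Fcgr2b and H2-DMa are lowest in LN CD103+ DCs.

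The NF-kB pathway was called in the opposite direction. Of 24 genes tested 15 were called, against 8.89% of all genes, all below 0, with a median interaction of -1.17. A DC2 bias of the spleen was lost for 12 of them and Traf1 turned, while Ikbkb gained a DC1 bias and Tnip1 passed in neither organ. Relb, a subunit of the alternative NF-kB pathway that DC2 of the spleen require, counted 162, 169.8 and 152 CPM in CD8+ DCs and 649.9, 1309 and 872 CPM in CD4+ DCs of the spleen. It counted 2694, 3002 and 2752 CPM in LN CD103+ and 2147, 2806 and 2312 CPM in LN CD11b+ DCs, where the libraries overlapped, and its interaction was -2.77 ± 0.34 (adjusted p = 0.000107).

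Rel, which encodes the c-Rel subunit, counted 38.3, 35.2 and 33.1 CPM in CD8+ DCs of the spleen, 107, 133 and 107 CPM in CD4+ DCs of the spleen, 149, 196 and 186 CPM in LN CD103+ DCs and 142, 170.3 and 213 CPM in LN CD11b+ DCs (interaction -1.72 ± 0.29, adjusted p = 0.00127). Map3k14, the kinase NIK that activates the alternative pathway, lost its DC2 bias too (-1.73 ± 0.30, adjusted p = 0.00143). Traf1, an adaptor of TNF receptors, turned, from -0.65 ± 0.22 in spleen to 0.9 ± 0.22 in LN, with 1236 ± 63.7 CPM in CD103+ and 664 ± 138 CPM in CD11b+ DCs. The LN levels of Relb, Rel and Traf1 lay above all of their splenic levels, so what was lost is a ratio between lineages, not an amount of transcript.

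**Figure D4:**
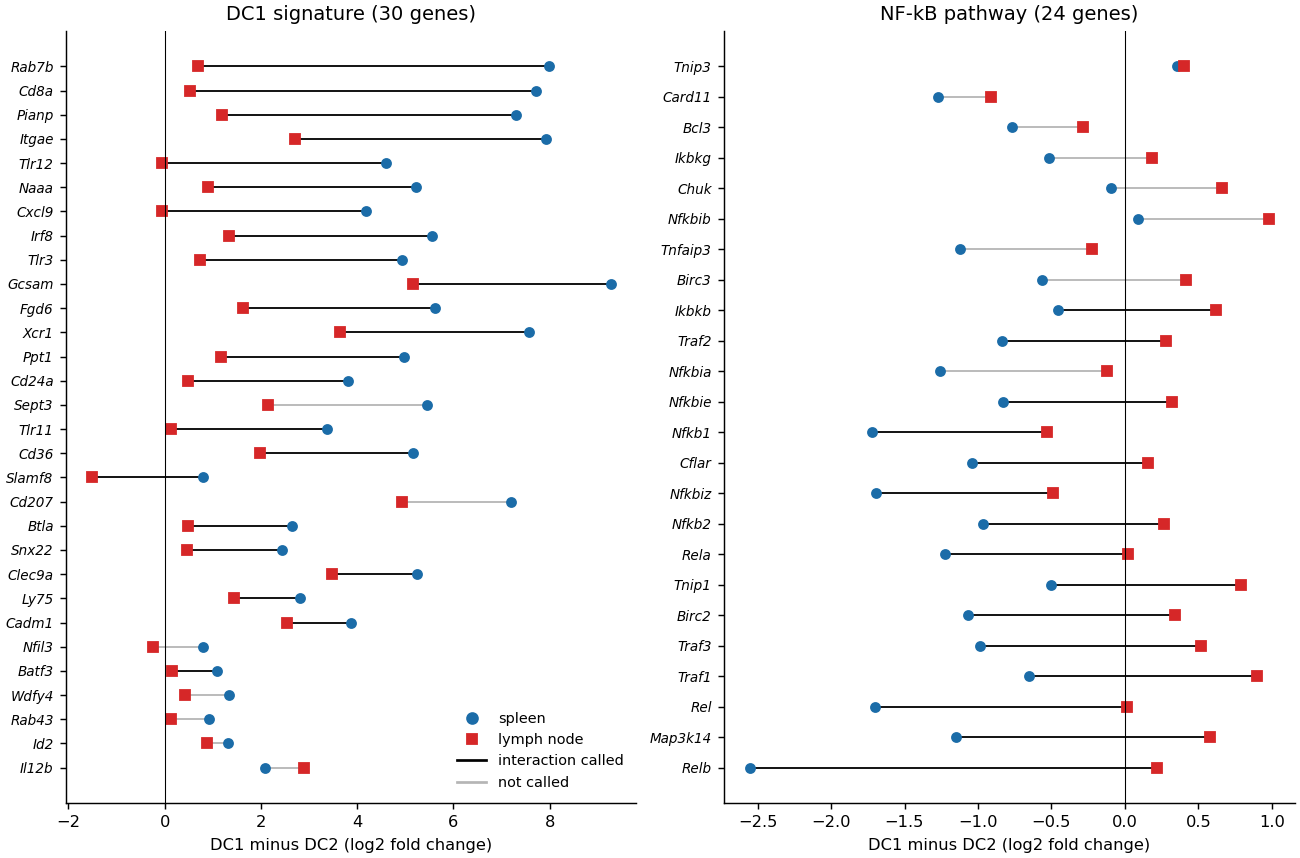
For each member of the DC1 signature (left) and the NF-kB pathway (right) a circle gives the log2 fold change of DC1 over DC2 in the spleen and a square that in the LN, joined by a black line where the interaction was called. All but 1 of the 30 DC1 signature genes (Il12b) have the square to the left of the circle, and every called NF-kB gene has it to the right.

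Promoters of 4 called NF-kB genes are printed because a kappaB motif, GG then 3 bases then TTCC, lay within 250 bases upstream of the start site. The motif was searched on both strands of the RefSeq promoter table (GRCm38.p6), and capitals mark the match nearest the start site. The Tnip1 line also holds a match on the other strand that overlaps the marked one. It was found in 11 of 19 members of the list that had a promoter, 6 of 11 called and 5 of 8 not called, and in 17.6% of all 27025 genes of the table. A match describes the letters alone. Each line gives 60 bases, 5′ to 3′ on the strand of the gene, from chr11:23771026-23771085, minus strand (Rel), chr12:111166310-111166369, plus strand (Traf3), chr9:7837248-7837307, minus strand (Birc2) and chr11:54962962-54963021, minus strand (Tnip1).
Rel: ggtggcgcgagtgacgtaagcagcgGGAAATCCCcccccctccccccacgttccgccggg
Traf3: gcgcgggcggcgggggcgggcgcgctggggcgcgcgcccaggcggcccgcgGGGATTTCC
Birc2: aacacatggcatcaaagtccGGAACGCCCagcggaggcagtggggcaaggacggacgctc
Tnip1: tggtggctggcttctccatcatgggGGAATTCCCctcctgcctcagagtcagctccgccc

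Genes of DC maturation were called mostly in this direction too. Of 30 tested 15 were called, against 8.89% of all genes, 13 below and 2 above 0, with a median interaction of -1.09. The block within organ gave 25, against 18.4% of all genes. Relb and Traf1 belong to this list as well. Mreg, a melanosome transport protein, counted 7.43, 4.99 and 10.7 CPM in CD8+ DCs of the spleen, 42.8, 54.4 and 56 CPM in CD4+ DCs of the spleen, 194, 199 and 230.01 CPM in LN CD103+ DCs and 154, 143 and 188 CPM in LN CD11b+ DCs, with an interaction of -3.08 ± 0.34 (adjusted p = 3.65e-05). Il4i1, an amino acid oxidase of mature DCs, lost a DC2 bias (-1.47 ± 0.22 in spleen, 0.4 ± 0.22 in LN, adjusted p for the interaction = 0.00104). Ccr7, the receptor that guides DCs to LN, was at 3944 ± 437 CPM in LN CD103+ and 2306 ± 196 CPM in LN CD11b+ DCs but at 90.7 ± 31.7 and 168 ± 65.4 CPM in splenic CD8+ and CD4+ DCs. Its interaction was -1.66 ± 0.42 (adjusted p = 0.0196), and without LN CD11b+ replicate 1 the adjusted p was 0.0537.

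Ligands of the PD-1 checkpoint shared this pattern. Cd274, which encodes PD-L1, counted 47.4, 36.4 and 39.3 CPM in CD8+ DCs and 191, 298 and 249.6 CPM in CD4+ DCs of the spleen, and 301, 438 and 354 CPM in LN CD103+ and 354, 377 and 293 CPM in LN CD11b+ DCs (interaction -2.68 ± 0.31, adjusted p = 5.96e-05). Pdcd1lg2, which encodes PD-L2, turned. It counted 0.472, 2.29 and 2.06 CPM in CD8+ DCs and 25.8, 32.5 and 22.2 CPM in CD4+ DCs of the spleen, whereas LN CD103+ DCs, at 50.6, 77.4 and 68.2 CPM, exceeded LN CD11b+ DCs, at 24.1, 27.7 and 19.5 CPM (interaction -5.51 ± 0.50, adjusted p = 5.5e-06). The groups did not overlap in either organ. Among 26 costimulation and checkpoint genes 8 were called, 4 in each direction, against 8.89% of all genes. The block within organ gave 13, against 18.4% of all genes. Cd40, the receptor for T cell help, was called at -1.43 ± 0.37 (adjusted p = 0.0218) but not without LN CD103+ replicate 2, LN CD11b+ replicate 1 or splenic CD8+ replicate 1, with an adjusted p of up to 0.0657. Cd80 did not pass (-0.37 ± 0.45, adjusted p = 0.681).

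Receptors for cytokines were called 9 times among 39, 3 above and 6 below 0, against 8.89% of all genes. Il21r, the IL-21 receptor, turned from -2.9 ± 0.26 in spleen to 0.94 ± 0.24 in LN (adjusted p for the interaction = 8.35e-06), at 10.5, 9.18 and 13.9 CPM in splenic CD8+ and 65, 63.8 and 122 CPM in splenic CD4+ DCs against 420.5, 447 and 458 CPM in LN CD103+ and 257, 210.5 and 225 CPM in LN CD11b+ DCs. Tnfrsf1b, the second TNF receptor, lost a DC2 bias (-2.19 ± 0.33, adjusted p = 0.000545). Il27ra, the IL-27 receptor chain, did so as well (-2.4 ± 0.59, adjusted p = 0.0156). Of 30 cytokine genes 5 were called, 2 above and 3 below 0, against 8.89% of all genes. The count of cytokine genes was 2 without splenic CD4+ replicate 1 and 3 without any 1 of 5 other libraries (LN CD103+ replicates 2 and 3, LN CD11b+ replicates 1 and 2, and splenic CD8+ replicate 3). It was 10 with the block within organ, against 18.4% of all genes. Il1rn, the IL-1 receptor antagonist, kept a DC2 bias in both organs that narrowed from -5.32 ± 0.67 to -1.25 ± 0.32 (adjusted p for the interaction = 0.000612).

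Interferon-stimulated genes were another group called mostly below 0. Of 39 tested 14 were called, against 8.89% of all genes, 12 below and 2 above 0, and the median interaction was -1.11. In the spleen 24 of the 39 passed in favor of DC2, and in the LN 10 did. A DC2 bias was lost for 9 genes and narrowed for 2. With the block within organ 29 were called, against 18.4% of all genes. Ifit1, an antiviral RNA-binding protein, counted 4.01, 1.62 and 1.83 CPM in CD8+ DCs and 33.4, 33.9 and 67.3 CPM in CD4+ DCs of the spleen, but 48.3, 79.6 and 70.6 CPM in LN CD103+ and 32.8, 54.6 and 54.2 CPM in LN CD11b+ DCs, where the groups overlapped (interaction -4.64 ± 0.51, adjusted p = 3.6e-05). Within each replicate number the LN CD103+ library was the higher, as also for Relb, Mreg and Il4i1, yet none of the 4 passed the LN test with the block within organ (adjusted p = 0.185 for Ifit1, 0.41 for Relb, 0.162 for Mreg and 0.0729 for Il4i1). Oasl2, a member of the oligoadenylate synthetase family, counted 13.7, 10.4 and 6.3 CPM in CD8+ DCs of the spleen, 135, 121 and 168 CPM in CD4+ DCs of the spleen, 77.6, 126 and 86.3 CPM in LN CD103+ DCs and 107, 128 and 82.6 CPM in LN CD11b+ DCs (interaction -3.67 ± 0.39, adjusted p = 2.78e-05). Ifit3 lost its DC2 bias with -3.56 ± 0.60 (adjusted p = 0.00132), and Ddx58, the RNA sensor RIG-I, narrowed (-3.69 ± 0.43, adjusted p = 5.61e-05). Ddx58 was counted among the pattern recognition genes. For all 4 genes the splenic CD8+ libraries were the lowest.

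Ifi205 stood against this group. It counted 745, 885 and 959.5 CPM in CD8+ DCs and 13.1, 18.9 and 15.2 CPM in CD4+ DCs of the spleen, and its DC1 bias narrowed in the LN to 144, 106 and 128 CPM in CD103+ and 46.7, 42.1 and 81.9 CPM in CD11b+ DCs (interaction 4.63 ± 0.36, adjusted p = 2.35e-06). The related gene Ifi206 ran the other way, a DC2 bias that narrowed (-3.83 ± 0.65, adjusted p = 0.00113). Both belong to a family of DNA sensors with near-identical copies, so the split of reads between them is uncertain.

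Promoters of 4 called interferon-stimulated genes are printed because they held the core of an interferon-stimulated response element, GAAA then 2 bases then GAAA, within the same 250 bases. The motif was searched on both strands, and capitals mark the match nearest the start site. The Ifit1 line holds a further match upstream, left in lower case. The motif was found in 17 of 30 members with a promoter in the table (56.7%), 7 of 11 called and 10 of 19 not called. It was found in 936 of all 27025 genes of the table (3.46%). Ifi205, which moved against the group, held it too. The stretches of 60 bases lie at chr19:34640779-34640838, plus strand (Ifit1), chr19:34583382-34583441, plus strand (Ifit3), chr5:120777700-120777759, minus strand (Oas3) and chr1:174031855-174031914, minus strand (Ifi205) of GRCm38.p6.
Ifit1: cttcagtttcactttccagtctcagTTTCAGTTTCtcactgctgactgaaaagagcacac
Ifit3: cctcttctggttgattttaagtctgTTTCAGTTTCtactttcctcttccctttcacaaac
Oas3: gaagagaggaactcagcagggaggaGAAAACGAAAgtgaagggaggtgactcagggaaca
Ifi205: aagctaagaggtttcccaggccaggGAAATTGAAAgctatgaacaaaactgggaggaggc

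Notch ligands and targets differed member by member. Of 22 Notch pathway genes 7 were called, against 8.89% of all genes, 2 above and 5 below 0, with a median interaction of 0.22. Esam, an adhesion molecule that marks Notch2-dependent DC2 of the spleen, counted 8.49, 6.61 and 8.82 CPM in CD8+ DCs and 63, 116 and 118 CPM in CD4+ DCs of the spleen, and 39.2, 64.4 and 52.9 CPM in LN CD103+ and 42.7, 33.5 and 43.1 CPM in LN CD11b+ DCs (interaction -4.02 ± 0.38, adjusted p = 8.89e-06). Dtx1, a Notch target gene, counted 323, 266 and 221 CPM in splenic CD4+ DCs and 10.3, 14.1 and 11.8 CPM in LN CD11b+ DCs and lost its lineage difference (-4.46 ± 1.05, adjusted p = 0.0151), although 1 splenic CD8+ library, replicate 1, stood above the other two (25.2, 0.81 and 1.15 CPM). The ligand Dll4 had no count in CD8+ DCs and 2.46, 10.9 and 8 CPM in CD4+ DCs of the spleen, at least 58.5-fold higher, against 7.6, 7.91 and 11.3 CPM in LN CD103+ and 29.4, 22.3 and 39.1 CPM in LN CD11b+ DCs (adjusted p for the interaction = 0.00299). In contrast to Dll4, the ligand Jag2 was on the DC1 side in the spleen, as described above. Dll1, a further ligand, was called (adjusted p = 0.0406) at 5.77, 13.9 and 15.8 CPM in LN CD11b+ DCs and no more than 2.61 CPM elsewhere, but 20.6% of its exon length overlaps another gene and the call held in 4 of the 12 fits without 1 library.

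Chemokine receptors of monocytes changed sides between the organs. Of 22 chemokine receptors 11 were called, against 8.89% of all genes, 8 above and 3 below 0, with a median interaction of 1.31. They included a pair of neighbors on chromosome 9, Ccr1 (chr9:123962126-123968692) and Ccr2 (chr9:124101950-124113557 of mm10). In the spleen both were higher in DC1, in the LN in DC2. Ccr2, the receptor that draws monocytes from marrow, counted 48.1, 63.3 and 61 CPM in splenic CD8+ and 19.9, 13.9 and 17.2 CPM in splenic CD4+ DCs, but 12.8, 5.16 and 11.4 CPM in LN CD103+ and 153, 117 and 102 CPM in LN CD11b+ DCs. Its interaction was 5.43 ± 0.41 (adjusted p = 1.71e-06).

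Ccr1 counted 10.9, 8.37 and 8.13 CPM in CD8+ DCs of the spleen, at most 0.678 CPM in CD4+ DCs of the spleen and in LN CD103+ DCs, and 21.5, 9.98 and 5.55 CPM in LN CD11b+ DCs (interaction 9.49 ± 1.09, adjusted p = 1.83e-05). Ccl5, which encodes a chemokine that attracts T cells, turned in the opposite direction. It was at 43.2 ± 27.6 CPM in splenic CD8+ and 158 ± 92.3 CPM in splenic CD4+ DCs and at 7116 ± 793 CPM in LN CD103+ and 2104 ± 199.99 CPM in LN CD11b+ DCs (interaction -3.63 ± 0.55, adjusted p = 0.000653). Ccr6, which responds to CCL20, kept a DC2 bias that narrowed from -5.4 ± 0.49 to -1.73 ± 0.34 (adjusted p for the interaction = 0.000596).

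Surface antigens of the Ly6 family, known from monocytes, were called with these receptors. Ly6c2, which encodes part of the Ly6C antigen, counted 9.44, 10.8 and 12.4 CPM in splenic CD8+ and 0.518, 0.521 and 0.666 CPM in splenic CD4+ DCs, and 2.17, 3.67 and 5.06 CPM in LN CD103+ and 15.6, 11.7 and 17.3 CPM in LN CD11b+ DCs (6.26 ± 0.60, adjusted p = 5.6e-06). Ly6i, from the same family on chromosome 15, gained a DC2 bias in the LN (5.63 ± 0.73, adjusted p = 0.000107). The members of this family are close in sequence, and the division of reads among them is uncertain. Over 15 monocyte markers the summed level was 969 to 1065 CPM in splenic CD8+, 1772 to 2534 CPM in splenic CD4+, 154 to 366 CPM in LN CD103+ and 1035 to 1225 CPM in LN CD11b+ DCs, and their part in these results was not tested. Single markers of that list went different ways. S100a8 and S100a9 stayed below 1 CPM in every DC library, whereas LN CD11b+ DCs counted 130.5, 95.1 and 117 CPM of Fn1, 20.6, 13.1 and 16.4 CPM of Chil3 and 22.5, 11.4 and 9.1 CPM of F13a1, each above every library of the other groups, and the interaction of these 3 genes did not pass (adjusted p = 0.587, 0.28 and 0.871).

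C-type lectins, receptors that bind glycans and mediate uptake, were called in 15 of 30 cases, 12 above and 3 below 0, against 8.89% of all genes. Of the 12 above 0, a DC2 bias was gained for 1 and widened for 5, and a DC1 bias was lost for 3 and narrowed for 3. The list had a median interaction of 1.79 (1.56 with genes lacking a count in 1 group at their bound). Cd209a, a mannose-binding lectin homologous to DC-SIGN, counted 99, 68.4 and 42 CPM in splenic CD8+ and 264, 149 and 149.9 CPM in splenic CD4+ DCs, and 0.271, 0.115 and 1.79 CPM in LN CD103+ against 66.8, 39.2 and 30.6 CPM in LN CD11b+ DCs (interaction 4.68 ± 0.81, adjusted p = 0.000688). Clec10a, a galactose-type lectin, overlapped between the lineages in the spleen (7.55, 2.7 and 1.83 CPM and 7.9, 4 and 2.17 CPM), while LN CD11b+ DCs counted 24, 14.4 and 15.1 CPM and LN CD103+ DCs 0.678, 0.229 and 1.14 CPM (4.52 ± 0.89, adjusted p = 0.00364). Clec4b1 had no count in LN CD103+ DCs and 13.4, 17.8 and 14.2 CPM in LN CD11b+ DCs, at least 112-fold higher, compared with 3.54, 0.81 and 0.802 CPM and 13.3, 9.38 and 12.7 CPM in splenic CD8+ and CD4+ DCs. Its close paralog Clec4b2 was detected in splenic CD8+ DCs almost alone (20.4, 33.1 and 26 CPM), and the assignment of reads between both genes is uncertain.

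On the linear CPM scale many widened and some narrowed genes read differently. Of 43 genes whose DC2 bias widened in the LN, 15 kept the sign of the interaction when CPM were subtracted instead of log2 values. Cd209a did not, since its difference in CPM was larger in the spleen and its ratio larger in the LN. Neither did Csf1r, another widened gene. Of the 89 narrowed genes 62 kept the sign, and Il1rn and Dll4 were among those that did not. Over all called genes the sign was the same on both scales for 1169 of 1256.

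Receptors for antibody and complement followed the lectins. Of 24 tested 9 were called, against 8.89% of all genes, 8 above and 1 below 0, with a median interaction of 0.86. Fcgr2b, the inhibitory Fc receptor, counted 119, 124 and 63.1 CPM in splenic CD8+ and 95, 76.1 and 28.8 CPM in splenic CD4+ DCs, which overlapped, but 17, 7.8 and 11.1 CPM in LN CD103+ and 139.8, 165 and 96.6 CPM in LN CD11b+ DCs (interaction 4.1 ± 0.55, adjusted p = 0.000239). C1qb, a chain of the complement component that opens the classical pathway, widened from -1.55 ± 0.31 in spleen to -3.99 ± 0.32 in LN (adjusted p for the interaction = 0.00265), at 273, 202 and 134 CPM in LN CD11b+ DCs. C1qa, its neighbor on chromosome 4, was called with all libraries (2.68 ± 0.68, adjusted p = 0.0206) and in 8 of the 12 fits without 1, with an adjusted p of up to 0.0675 when LN CD103+ replicate 2 or 3, LN CD11b+ replicate 1 or splenic CD8+ replicate 1 was left out. Cr2 was called on the DC2 side of the spleen (-4.92 ± 1.36, adjusted p = 0.025), but at -3.12 it did not pass without the LN CD103+ library that carried B cell transcripts, and it also failed without LN CD11b+ replicate 2, splenic CD4+ replicate 2 or splenic CD8+ replicate 2 or 3.

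Of 16 macrophage markers 6 were called, against 8.89% of all genes. C1qa, C1qb, C1qc and Mertk widened and Cd68 gained a DC2 bias, while Timd4 gained a DC1 bias. Csf1r, the receptor for CSF1, was at 96.1 ± 37.6 CPM in splenic CD8+, 521 ± 102 CPM in splenic CD4+, 13.1 ± 4.71 CPM in LN CD103+ and 339 ± 14.2 CPM in LN CD11b+ DCs, a DC2 bias that widened (2.27 ± 0.41, adjusted p = 0.00237). Mertk, a kinase that binds dying cells, widened too (3.2 ± 0.62, adjusted p = 0.00288). Kdr, a receptor for VEGF and no marker of macrophages, gained a DC2 bias, from 17.4 ± 8.76 and 11.7 ± 1 CPM in splenic CD8+ and CD4+ DCs to 3.28 ± 0.718 CPM in LN CD103+ and 38.4 ± 11 CPM in LN CD11b+ DCs (4.11 ± 0.49, adjusted p = 8.11e-05). The macrophage markers summed to 675 to 883 CPM in splenic CD8+, 2153 to 2715 CPM in splenic CD4+, 392 to 512 CPM in LN CD103+ and 1202 to 2082 CPM in LN CD11b+ DCs, and their part in these results was not tested.

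Cd300e, an activating receptor of myeloid cells from the CD300 family, gained a DC2 bias in the LN and counted 16.5, 13 and 23.4 CPM and 16.8, 10.8 and 21.5 CPM in splenic CD8+ and CD4+ DCs, no read in LN CD103+ DCs and 1.78, 6.9 and 1.11 CPM in LN CD11b+ DCs, at least 24.2-fold higher (adjusted p for the interaction = 0.00335). Among 28 SIRP, CD300, Siglec and LILR receptors 7 were called, 4 above and 3 below 0, against 8.89% of all genes. The count of these receptors was 2 without LN CD103+ replicate 1 and 3 or 4 without any 1 of 7 other libraries (LN CD103+ replicates 2 and 3, LN CD11b+ replicates 1 and 2, splenic CD4+ replicate 3 and splenic CD8+ replicates 1 and 2). It was 12 with the block within organ, against 18.4% of all genes.

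Genes of MHC class II presentation were called mostly above 0. Of 19 genes of the class II pathway 7 were called, against 8.89% of all genes, 6 above and 1 below 0, with a median interaction of 1.25. The block within organ gave 13, against 18.4% of all genes. H2-Ab1, the beta chain of I-A and a target of the sort, counted 17112, 21200 and 18888 CPM in splenic CD8+ and 16227, 20763 and 11197 CPM in splenic CD4+ DCs, and 3112, 927 and 1131 CPM in LN CD103+ against 8639, 8706 and 4585 CPM in LN CD11b+ DCs. The lineages overlapped in the spleen and not in the LN, and the interaction was 2.33 ± 0.56 (adjusted p = 0.0155), or 3.08 without LN CD103+ replicate 1. H2-Eb1 was called with 2.41 ± 0.46 (adjusted p = 0.00337).

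H2-DMa and H2-DMb1 encode the chains of H2-M, which loads peptide onto class II. H2-DMa counted 559.6, 475 and 788 CPM and 396, 206 and 495 CPM in splenic CD8+ and CD4+ DCs, 72.3, 18.7 and 28.2 CPM in LN CD103+ DCs and 209.6, 141 and 162 CPM in LN CD11b+ DCs (2.84 ± 0.57, adjusted p = 0.00522). H2-DMb1 turned, from 1.54 ± 0.45 in spleen to -2.09 ± 0.47 in LN (adjusted p for the interaction = 0.00245). The one gene below 0, H2-Eb2, kept a DC2 bias that narrowed from -3.62 ± 0.23 to -0.75 ± 0.21 (adjusted p for the interaction = 2.78e-05). The mean levels of H2-Ab1, H2-Eb1, H2-DMa and H2-DMb1 were lower in each LN group than in the splenic group of its lineage, in cells gated on high surface MHC class II. H2 genes are close paralogs, and their counts carry that uncertainty.

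Adhesion genes were called in both directions. Of 33 integrins and adhesion genes 14 were called, 9 above and 5 below 0, against 8.89% of all genes. Cdh17, a cadherin, turned and counted 2.71, 1.89 and 1.15 CPM in splenic CD8+ and 22.9, 42.6 and 41.7 CPM in splenic CD4+ DCs, 1.22, 4.24 and 1.14 CPM in LN CD103+ DCs and no read in LN CD11b+ DCs, so LN CD103+ DCs were at least 15.3-fold higher there (adjusted p for the interaction = 4.68e-05). F11r, the junctional adhesion molecule JAM-A, turned from -4.35 ± 0.33 to 0.98 ± 0.24 (adjusted p for the interaction = 1.51e-06) with 432 ± 39 CPM in LN CD103+ and 219.9 ± 23.8 CPM in LN CD11b+ DCs against 1.23 ± 0.652 and 25.8 ± 5.91 CPM in splenic CD8+ and CD4+ DCs. Itga1, an integrin subunit that binds collagen, lost a DC1 bias (6.78 ± 1.08, adjusted p = 2.56e-05).

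Pglyrp1, which encodes a peptidoglycan recognition protein, was the clearest crossing in levels. It counted 14.5, 7.42 and 8.25 CPM in splenic CD8+ and 78.3, 36 and 65.8 CPM in splenic CD4+ DCs, and 50.5, 63.1 and 59.9 CPM in LN CD103+ and 10.4, 6.46 and 7.1 CPM in LN CD11b+ DCs, without overlap in either organ (interaction -5.41 ± 0.45, adjusted p = 3.36e-06). Slc45a3, a solute carrier, turned from 2.24, 2.43 and 1.49 CPM against 10.5, 14.2 and 14.3 CPM in splenic CD8+ and CD4+ DCs to 1.09, 0.573 and 3.43 CPM against 0.105, 0 and 0 CPM in LN CD103+ and CD11b+ DCs (-7.34 ± 1.66, adjusted p = 0.000465). Its LN levels rest on few reads.

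Cd101, an inhibitory receptor of myeloid cells, had the largest loss of a DC2 bias among genes called in all 12 fits without 1 library and averaging 10 CPM or more in a group. It counted 0.236, 0.135 and 0.115 CPM in CD8+ DCs and 45.3, 62.4 and 34.2 CPM in CD4+ DCs of the spleen, and 2.85, 8.03 and 6.85 CPM in LN CD103+ and 8.6, 9.25 and 8.88 CPM in LN CD11b+ DCs (-7.45 ± 0.83, adjusted p = 3.36e-06). Prdm1, the transcription factor BLIMP-1, lost a DC2 bias as both LN groups came out above the splenic ones, at 31.1 ± 7.96 CPM in LN CD103+ and 40.7 ± 9.51 CPM in LN CD11b+ DCs against 0.483 ± 0.0844 and 9.4 ± 0.972 CPM in splenic CD8+ and CD4+ DCs (-3.84 ± 0.50, adjusted p = 7.46e-05). Of 30 DC transcription factors 6 were called, 3 in each direction, against 8.89% of all genes. With the block within organ 13 were called, against 18.4% of all genes. Irf4 and Zbtb46 did not pass (-0.81 ± 0.50 and -0.57 ± 0.29, adjusted p = 0.363 and 0.259), nor did the cytokine receptor Flt3 (-0.44 ± 0.34, adjusted p = 0.486).

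A DC1 bias was gained in the LN by 66 genes and widened by 3. Scin, the actin-severing protein scinderin, was low in the spleen (0.944, 1.48 and 2.41 CPM in CD8+ and 1.55, 4 and 2.83 CPM in CD4+ DCs) and counted 266, 356 and 279.8 CPM in LN CD103+ and 48.7, 48.1 and 42.4 CPM in LN CD11b+ DCs (-3.44 ± 0.46, adjusted p = 0.000213). Timd4, a receptor for phosphatidylserine on dying cells, counted 59.8, 62.5 and 59.7 CPM in LN CD103+ and 17.4, 20.8 and 16 CPM in LN CD11b+ DCs but no more than 7 CPM in any splenic library (-2.31 ± 0.43, adjusted p = 0.00287). Sema6d, a transmembrane semaphorin, was at 469.8 ± 27.2 CPM in LN CD103+ and 192 ± 43.9 CPM in LN CD11b+ DCs (-1.97 ± 0.33, adjusted p = 0.00121). Serpinb1a, an inhibitor of neutrophil proteases, widened from 1.04 ± 0.29 to 3.02 ± 0.26 (adjusted p for the interaction = 0.00463) and reached 911 ± 21.3 CPM in LN CD103+ DCs. Ighg3, an immunoglobulin constant region, had the largest value of this class among genes averaging 10 CPM or more in a group (-4.91 ± 1.13, adjusted p = 0.00998), yet LN CD103+ replicate 1, the library with B cell transcripts, counted 55.6 CPM of it against 8.49 and 8.16 CPM in the other two, and the value without that library was -3.38.

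Several lists were called at a share not far from that of all genes. Among 28 cholesterol genes 1 was called, among 40 cell cycle genes 3, among 26 MHC class I genes 2 and among 16 BCL2 family genes 1, against 8.89% of all genes. With the block within organ these counts were 7, 7, 10 and 6, against 18.4% of all genes in that fit, so the share of the MHC class I and BCL2 lists was then above that of all genes. Leaving out 1 library moved them between 0 and 2 for cholesterol, and to 1 for the cell cycle without LN CD11b+ replicate 1 or splenic CD8+ replicate 3. The MHC class I count moved to 1 without LN CD103+ replicate 1, 2 or 3, LN CD11b+ replicate 1 or splenic CD8+ replicate 3 and to 4 without splenic CD4+ replicate 3. The BCL2 count moved to 3 without splenic CD4+ replicate 2 and to 2 without LN CD103+ replicate 1 or 2, LN CD11b+ replicate 2, splenic CD4+ replicate 3 or splenic CD8+ replicate 3. The DC2 signature, unlike these lists, was called above the share of all genes, for 13 of 30 genes (43.3% against 8.89%). With 7 above and 6 below 0 and a median interaction of 0.07, its calls leaned to neither side. A DC2 bias was lost for 4 of them, widened for 4, gained for 2, turned for 1 and narrowed for 1, and a DC1 bias narrowed for 1.

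**Figure D5:**
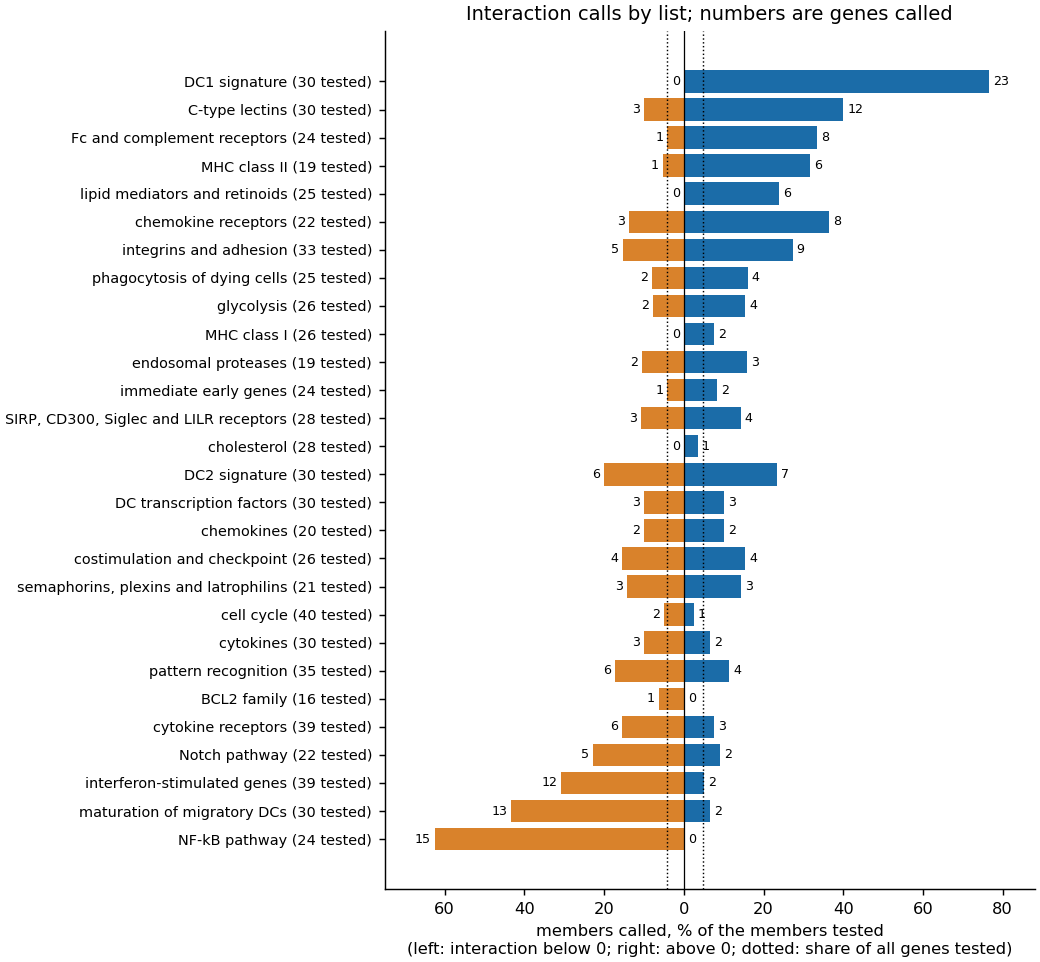
Bars give, for each function list, the percent of its tested members called for the interaction, below 0 to the left and above 0 to the right, with the number of genes at each bar and dotted lines at the share of all genes tested (4.2% below and 4.7% above 0). The DC1 signature (23 genes) reaches farthest to the right and the NF-kB pathway (15 genes) farthest to the left.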

How the data were processed

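RNA of sorted murine DCs was sequenced by the authors, aligned to mm10 with STAR 2.4.0j and counted per Ensembl gene with featureCounts of Subread 1.5.2 (versions from the submitters' processing notes). Counting used unique reads, ignored strand and gave a read to every gene it overlapped, so overlapping genes and close paralogs are uncertain. The authors deposited raw counts per gene, with runs of a library summed, and TPM, which were used only in an alternative. The deposited exon length per gene, another column of the files, served to check overlaps. No deposited column was left without a sample. The authors assigned 56.9 to 63.9% of reads to genes.

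Genes above 1 CPM in 3 or more of the 12 libraries were fitted with edgeR 4.0.16 (R 4.3.3, TMM factors 0.897 to 1.11, quasi-likelihood test, 1 mean per group, Benjamini-Hochberg adjustment over 14121 genes, threshold 0.05). Standard errors came from the fitted model. CPM divide counts by the library total times its TMM factor. Genes called for the interaction were sorted into 6 classes by the lineage tests of each organ. The fit was tested on simulated counts with changes of known size.

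The members and the 28 function lists were chosen with earlier results of these data known, and 2 further lists after values were seen. Lists are described by counts and medians without a test. Named genes were those of the sort and of the study, the 4 largest per class and direction averaging 10 CPM or more in a group and called in all 12 fits that left out 1 library, and the largest called members of each list. Members shown for a promoter motif (Traf3, Birc2, Tnip1, Oas3, Hsp90b1) were chosen by that motif, and the monocyte markers Fn1, Chil3 and F13a1 after their values were seen. Some genes that the rule named are not reported here.

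Replicate numbers come from the labels. Deviations of libraries with the same number correlated at 0.168 to 0.38 within an organ (6 pairs) and at -0.298 to -0.0163 for different numbers, while across organs they correlated at 0.0148 to 0.281 for the same number (0.208 to 0.281 between splenic CD4+ and LN CD11b+ DCs, 0.0411 to 0.0865 between splenic CD8+ and LN CD103+ DCs) and at -0.281 to 0.0233 for different numbers. Every pair was above 0.1 within an organ but not across organs, so the number was treated as pairing libraries within an organ, and the blocked fit is given where it changed a count. Alternatives were DESeq2 1.42.0, RLE size factors, filterByExpr, no filter, limma 3.58.1 on log2(TPM + 1), all 15 libraries, both blocks and leaving out each library. Promoters were searched in the RefSeq table of GRCm38.p6.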

Additional observations from a re-analysis of the deposited data

Results flagged for a closer look

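The test of the difference between organs singled out 1256 genes, of which 802 lost, 195 gained and 70 turned their lineage difference in the LN. Genes that turned were the most extreme form, since the lineages were ordered one way by every library of the spleen and the other way by every library of the LN for the 7 genes given here.

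On the DC1 side of the spleen these were the chemokine receptors Ccr1 (interaction 9.49 on the log2 scale) and Ccr2 (5.43) and the Ly6C gene Ly6c2 (6.26). On the DC2 side they were the cadherin Cdh17 (-11.26, a fitted value that depends on the prior count because LN CD11b+ DCs had no read), the solute carrier Slc45a3 (-7.34), the checkpoint ligand gene Pdcd1lg2 (-5.51) and the peptidoglycan recognition gene Pglyrp1 (-5.41). The 3 genes of the DC1 side were lower in LN CD103+ than in splenic CD8+ DCs in every library.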

How the results depend on the processing

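Organ, cohort and gate move together, so no setting separates them, and with 3 pools a group the tests had 8 residual degrees of freedom. Blocking on the replicate number within organ kept the call of 147 of 147 called named genes and raised the interaction to 2600 genes (1362 above and 1238 below 0), a block across organs to 2168 (1134 and 1034). DESeq2 called 898 genes below 0. The LN lineage count was 2769 with the block within organ and 2315 with the block across organs. Lost genes numbered 1494 and 1301 under these blocks, gained 456 and 367, turned 229 and 160, narrowed 199 and 152, widened 107 and 79, and genes passing in neither organ 115 and 109. Without a filter on low counts gained, turned, narrowed, widened and neither came to 309, 118, 149, 86 and 101, and DESeq2 gave 301 gained, 111 turned and 107 neither. Classing by the size of the lineage difference gave 128 turned and 186 neither. Interferon-stimulated genes were called 23 times with DESeq2, with all 15 libraries and without the filter, instead of 14, and the class II list 11 times with 15 libraries or no filter, instead of 7. Chemokines came to 9 and semaphorins to 10 without the filter, and SIRP and related receptors to 13 without it and 3 under limma.

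Leaving out 1 library at a time gave 830 to 1380 genes for the interaction, 410 to 737 above and 420 to 643 below 0, 2229 to 3502 for the spleen and 913 to 1790 for the LN. The classes ran from 552 to 871 lost, 105 to 230 gained, 35 to 77 turned, 56 to 103 narrowed, 26 to 48 widened and 29 to 66 neither. LN CD103+ replicate 2 gave the fewest gained, turned and neither, and turned came to 45 and 46 without LN CD103+ replicate 3 or LN CD11b+ replicate 1. Narrowed came to 56 to 58 without LN CD103+ replicates 2 or 3 or LN CD11b+ replicates 1 or 2, and widened to 26 to 28 without LN CD103+ replicate 2, LN CD11b+ replicate 1, splenic CD4+ replicate 1 or splenic CD8+ replicates 1 or 2. Neither came to 31 without LN CD11b+ replicate 1. No called gene changed sign in an edgeR or DESeq2 alternative, whereas 7 did under limma on log2(TPM + 1), among them Fam20c (0.098) and Adgrl3 (-0.95), for which the cause was not tested.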

Other observations

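Protein folding in the endoplasmic reticulum (ER) and nucleotide receptors were listed after values had been seen, so their counts describe the choice as much as the data. Of 30 ER folding genes 14 were called, against 8.89% of all genes, all above 0 and all lost DC1 biases, with a median interaction of 1.2. Pdia5, a disulfide isomerase, counted 199, 183 and 278 CPM in splenic CD8+ and 2.59, 0 and 0.833 CPM in splenic CD4+ DCs, and 18.4, 14.1 and 12.4 CPM in LN CD103+ and 7.97, 6.16 and 12.2 CPM in LN CD11b+ DCs (interaction 6.66 ± 0.69, adjusted p = 1.31e-05). Sdf2l1, a chaperone partner, was called with 2.73 ± 0.57 (adjusted p = 0.00657), and Manf, a secreted ER protein, with 2.48 ± 0.56 (adjusted p = 0.0108). Pdia6, another isomerase, counted 347, 348 and 445 CPM in splenic CD8+ DCs and 126, 67.1 and 107 CPM, 98.7, 54.8 and 77.8 CPM and 152, 93.1 and 89.9 CPM in splenic CD4+, LN CD103+ and LN CD11b+ DCs, so the splenic CD8+ libraries stood above all others.

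An ER stress response element, CCAAT then 9 bases then CCACG on either strand, lay within 250 bases upstream of 9 of 26 members with a promoter in the RefSeq table, 6 of 12 called and 3 of 14 not called, against 0.13% of the 27025 genes of that table. Capitals mark it in 60 bases of GRCm38.p6 at chr12:17266466-17266525, plus strand (Pdia6), chr10:86705517-86705576, minus strand (Hsp90b1) and chr8:84847059-84847118, minus strand (Calr). The match describes the letters alone.
Pdia6: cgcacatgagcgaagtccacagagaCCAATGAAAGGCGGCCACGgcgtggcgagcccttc
Hsp90b1: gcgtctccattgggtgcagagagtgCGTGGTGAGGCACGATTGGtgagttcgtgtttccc
Calr: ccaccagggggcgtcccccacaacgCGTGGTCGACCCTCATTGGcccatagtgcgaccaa

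Of 10 receptors for extracellular nucleotides 5 were called, 4 above and 1 below 0, against 8.89% of all genes. P2ry14, which responds to UDP-glucose, counted 150.4, 161 and 153 CPM in splenic CD8+ DCs, and its other groups lay between 0.695 and 8.95 CPM (7.06 ± 0.60, adjusted p = 3.36e-06). P2rx7, the ATP-gated channel upstream of the NLRP3 inflammasome, overlapped between lineages in the spleen and counted 2.44, 1.15 and 4.89 CPM in LN CD103+ and 20.6, 21.3 and 20 CPM in LN CD11b+ DCs (3.34 ± 0.54, adjusted p = 0.000849). P2ry6, a receptor for UDP, turned (1.47 ± 0.40 in spleen, -2.0 ± 0.45 in LN, adjusted p for the interaction = 0.00152).

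Of 25 lipid mediator and retinoid genes 6 were called, all above 0, against 8.89% of all genes. Tbxas1, the thromboxane synthase, turned and counted 43.9, 57 and 44.8 CPM in splenic CD8+, 13.5, 12 and 8.83 CPM in splenic CD4+, 4.34, 2.64 and 1.96 CPM in LN CD103+ and 20.7, 12.3 and 15.5 CPM in LN CD11b+ DCs (4.51 ± 0.44, adjusted p = 1.07e-05). Alox5ap, the partner of 5-lipoxygenase, gained a DC2 bias (1.74 ± 0.42, adjusted p = 0.015). Of 26 glycolysis genes 6 were called, 4 above and 2 below 0, against 8.89% of all genes. Among them was the hexokinase Hk3, whose DC1 bias in the spleen was lost (4.16 ± 0.38 in spleen, 0.45 ± 0.39 in LN, adjusted p for the interaction = 0.000482).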
